A study of Mus musculus with 4 samples.

Results

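The SR proteins and the heterogeneous nuclear ribonucleoproteins (hnRNPs) are RNA-binding proteins that act on splice site choice, and the transcripts of both families were examined in mouse embryonic fibroblasts (MEF cells) exposed to the isoflavone genistein. The members were taken by name from the deposited count table. They were every gene row whose symbol was Srsf followed by a number, began with Hnrnp, or was Tra2a or Tra2b, with pseudogene symbols ending in -ps left out. This gave 33 of 47937 gene rows, of which 13 belong to the SR and Tra2 group and 20 to the hnRNP group. Of these 33, 32 had enough reads to be tested. Srsf12 had 0 reads in each of the 4 libraries, and a count of 0 allows up to 3 reads.

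The series holds 4 total RNA libraries of MEF cells, 2 of them untreated and 2 from cells kept with 50 µM genistein for 24 h. The labels call the untreated cells wild-type and state no genotype for the exposed cells beyond the exposure itself. They name no vehicle for the untreated cells, and they do not say that the 2 libraries of a group came from separate cultures, so the p-values measure the spread between these libraries, which may be technical. The libraries held between 28591958 and 31464284 counts. Fibroblast markers fixed in a list summed to 14474-14866 CPM (counts scaled to the TMM-adjusted library size) in the untreated and 13795-14103 in the genistein libraries, although Thy1 was at 0 in all 4. Scaled to plain library totals these sums overlapped, at 14095-14530 CPM untreated and 14258-14298 CPM with genistein. Of 9 fibroblast markers tested, 7 were called lower and 2 higher, against 38.2% and 33.5% of all genes tested. All 9 are abundant, and of the 6509 genes with a mean normalised count of at least 801, 54.9% were called lower. Their log2 fold changes ran from -0.73 (Pdgfrb) to 1.08 (Dcn), and Fn1, the marker with the most reads, rose by 0.20. Of 5 epithelial markers, 2 were at 0 (Epcam and Krt5), and the sum of the list was 22.5-24.0 CPM in untreated and 3.65-3.95 CPM in genistein-exposed cells, nearly all of it Krt14. The leukocyte markers (2 of 5 at 0, Adgre1 and Cd3e) summed to 2.23-2.84 and 7.05-7.14 CPM, and the endothelial markers (0 of 5 at 0) to 0.868-1.13 and 3.32 CPM. The muscle markers (1 of 4 at 0, Myod1) summed to 1.06-1.24 and 8.87-9.56 CPM, and the pluripotency markers (2 of 4 at 0, Zfp42 and Sox2) to 1.10-1.24 and 1.63-1.89 CPM. The tested genes among these other markers had log2 fold changes of -2.68 (Krt14), 1.496 (Cd68), 1.98 (Kdr), 3.03 (Des), 0.68 (Pou5f1) and 0.55 (Nanog), of which the last 2 did not pass the test. The part of these differences in the results on the splicing factors was not tested.

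SR proteins carry an RNA recognition motif and a domain rich in arginine and serine, bind exonic enhancers and help U1 and U2 components find the splice sites. Tra2 proteins are their close relatives. hnRNP proteins coat nascent transcripts and often act against the use of nearby sites, and many of them also serve in RNA export, stability and translation. Both families are known to limit their own levels: many of their genes contain a so-called poison exon or an intron that can be kept, and its inclusion sends the transcript to nonsense-mediated decay. In proliferating cells these genes are among the more strongly transcribed housekeeping genes.

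The promoters of the members with the largest falls are shown here with that of Srsf5, whose counts overlapped between the groups, so that the sequences can be read beside the changes described further on. Each runs over the 250 bases before a transcription start of the RefSeq annotation of GRCm38.p6, read 5′ to 3′ on the strand of the gene. Capitals mark the letters CCAAT and GGGCGG (the core of a GC box) on either strand, that is also ATTGG and CCGCCC. The first is Hnrnpab, at chr11:51606882-51607131 on the minus strand; Srsf2 lies at chr11:116853095-116853344 on the minus strand, Srsf1 at chr11:88047123-88047372 on the plus strand and Srsf5 at chr12:80945249-80945498 on the plus strand.
Hnrnpab: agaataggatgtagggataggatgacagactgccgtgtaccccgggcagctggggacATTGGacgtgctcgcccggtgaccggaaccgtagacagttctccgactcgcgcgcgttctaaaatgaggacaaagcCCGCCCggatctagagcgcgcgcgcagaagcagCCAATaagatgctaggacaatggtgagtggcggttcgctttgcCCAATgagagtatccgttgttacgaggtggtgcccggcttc
Srsf2: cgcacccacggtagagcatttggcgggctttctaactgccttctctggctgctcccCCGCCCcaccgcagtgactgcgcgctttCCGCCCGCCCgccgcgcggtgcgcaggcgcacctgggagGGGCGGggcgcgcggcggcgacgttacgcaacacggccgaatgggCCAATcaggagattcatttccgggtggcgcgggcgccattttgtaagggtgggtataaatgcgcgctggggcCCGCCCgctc
Srsf1: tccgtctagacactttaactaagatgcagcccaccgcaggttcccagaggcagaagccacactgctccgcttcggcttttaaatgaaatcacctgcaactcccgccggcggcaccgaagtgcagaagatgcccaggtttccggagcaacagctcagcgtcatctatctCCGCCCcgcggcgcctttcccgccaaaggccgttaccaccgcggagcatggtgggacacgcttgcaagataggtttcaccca
Srsf5: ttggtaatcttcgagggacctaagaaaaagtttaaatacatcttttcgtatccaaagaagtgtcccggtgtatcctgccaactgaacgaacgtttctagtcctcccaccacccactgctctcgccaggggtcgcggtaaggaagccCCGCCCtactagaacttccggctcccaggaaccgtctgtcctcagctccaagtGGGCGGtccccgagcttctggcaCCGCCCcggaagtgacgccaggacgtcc
Hnrnpab held CCAAT at 3 places and a GC box at 1. Srsf2 held CCAAT at 1 place and a GC box at 5, where overlapping copies count separately. Srsf1 had 0 and 1, and Srsf5 had 0 and 3. The GC content was 58.4% for Hnrnpab, 69.6% for Srsf2, 58.8% for Srsf1 and 56.8% for Srsf5. Srsf5 was chosen after its values were seen, and Hnrnpul2, the other member with overlapping counts, had no promoter entry. A relation between these sequences and the changes was not tested.

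Over all members, 30 of the 32 tested genes had an entry in the promoter table, with 42 promoters among them. CCAAT stood in 50.0% of these promoters and in 35.6% of the 12769 promoters of 10022 tested genes. The GC box letters stood in 81.0% and 57.9%, and the median GC content was 66.6% and 60.0%. The E-box letters CACGTG were in 7.14% of member promoters against 8.21%, and TATAAA in 7.14% against 6.47%, on either strand in each case. These shares are descriptions of the letters in the window and carry no test.

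Transcripts of nearly all members were lower in genistein-exposed MEF cells. Of 32 tested members, 30 passed the test with a lower level (adjusted p under 0.05, edgeR quasi-likelihood test, Benjamini-Hochberg over all genes and repeats tested), and the remaining 2, Srsf5 and Hnrnpul2, did not pass. The background was high: of 16240 genes tested, 38.2% were called lower and 33.5% higher. The members are abundant transcripts, and among the 6509 genes whose mean normalised count was at least that of the lowest tested member, 801, 54.9% were called lower. No member had a log2 fold change above 0 with TMM scaling, although with library totals alone Srsf5 (0.00168) and Hnrnpul2 (0.0234) lay just above it. Accordingly 0 were called higher with edgeR, 0 at an unadjusted p under 0.05 and 0 with DESeq2. DESeq2 called 11 SR and 19 hnRNP members lower, as edgeR did. The median log2 fold change was -0.64 over the members, -0.17 over the 6509 abundant genes and -0.03 over all genes. In total RNA from a whole culture, fewer cells that express a gene and less of its RNA per cell cannot be told apart.

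**Figure D1:**
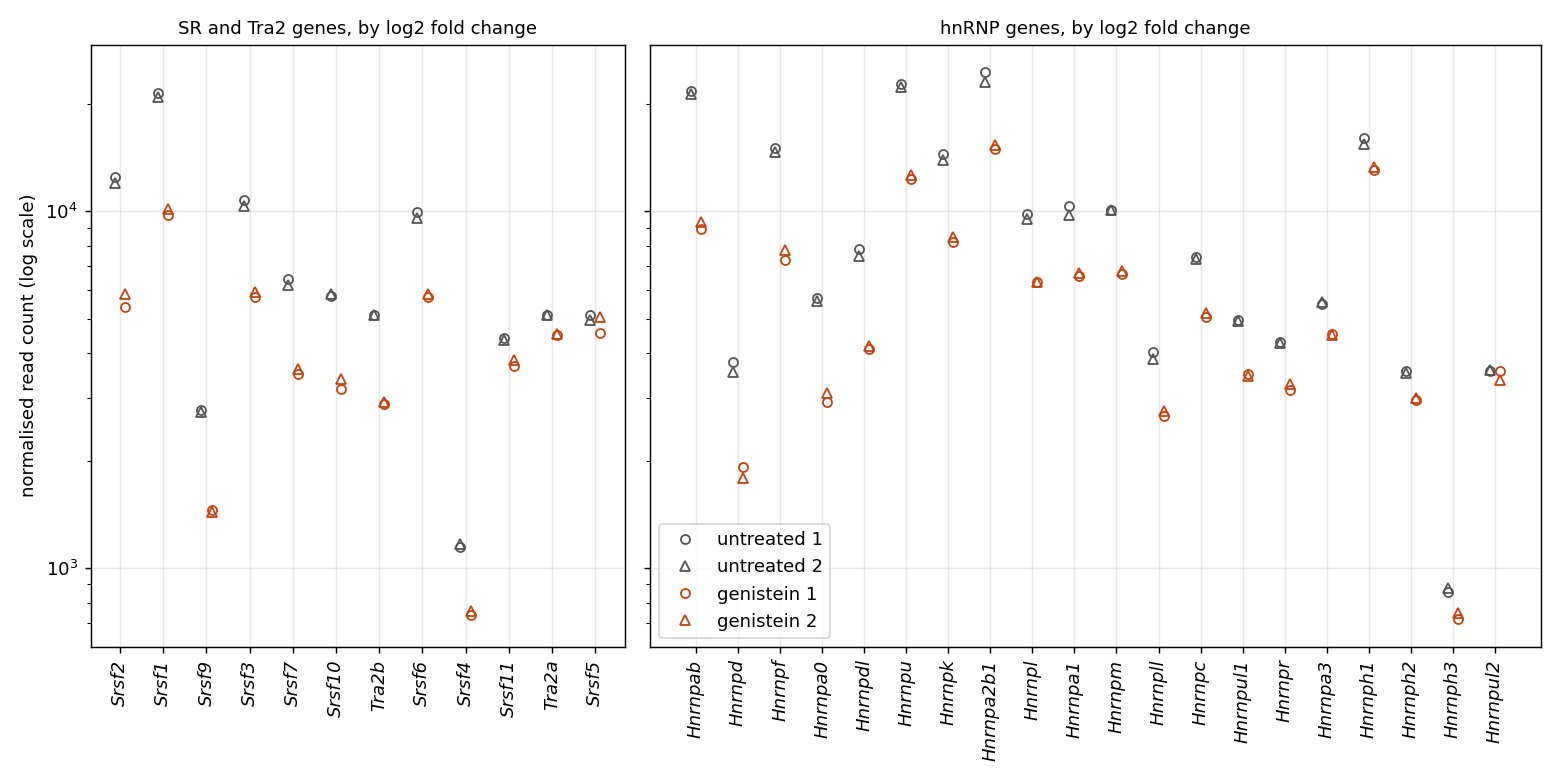
Normalised read count (log scale) of each tested member in each of the 4 libraries, SR and Tra2 genes on the left and hnRNP genes on the right, ordered by log2 fold change; circles and triangles are libraries 1 and 2 of a group, grey untreated and orange genistein. The 2 genistein libraries overlapped with the untreated libraries for Srsf5 and Hnrnpul2. How many of all genes tested had groups that did not overlap was not counted.

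The size of the change was moderate. The members' level in genistein-exposed cells was between 42.4% and 96.9% of the untreated level, with a median of 64.3%. The study set its own limits for a changed gene, an adjusted p under 0.05 with a mean count over 100 and a log2 fold change beyond 1 in either direction, and 3 members met all of these, Hnrnpab, Srsf2 and Srsf1. Hnrnpd and Hnrnpf lay close to the limit, and 4 members met it when the second untreated library or either genistein library was left out. With these thresholds 4.16% of all genes tested were lower and 3.92% higher. Without genistein, 1.06% and 1.04% of the counts of all genes were assigned to the members, against 0.677% and 0.701% with genistein. The SR and Tra2 genes went from 0.335% and 0.330% to 0.203% and 0.213%, and the hnRNP genes from 0.726% and 0.711% to 0.474% and 0.488%.

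**Figure D2:**
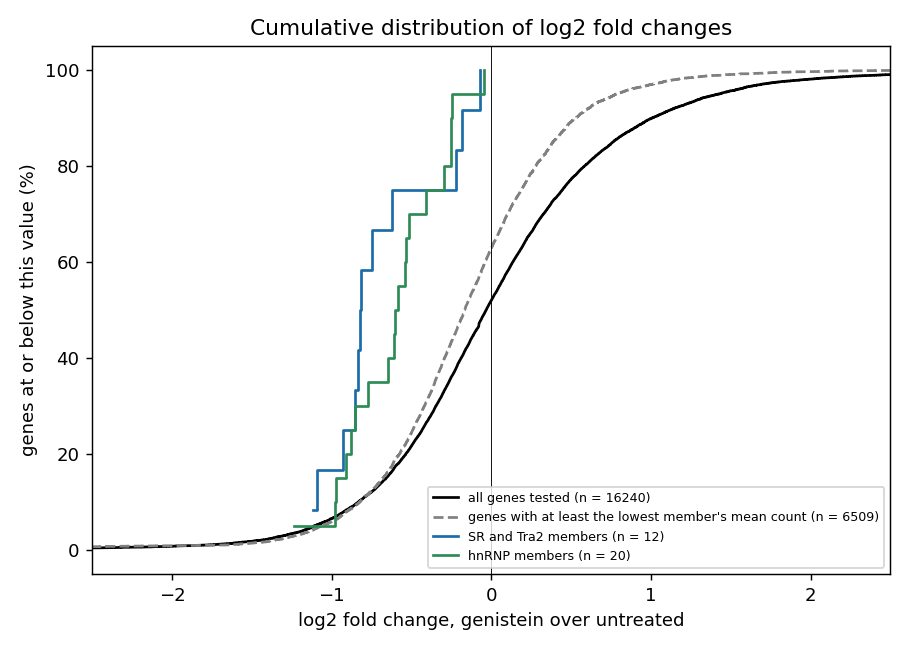
Cumulative share of genes (y axis, %) at or below a log2 fold change of genistein over untreated (x axis, its far ends not drawn) for the 12 SR and Tra2 members, the 20 hnRNP members, all 16240 genes tested and the 6509 genes with a mean count at least that of the lowest member. With the TMM scaling drawn here both member curves reach 100% below 0 (with library totals alone 2 members lie just above it), whereas the abundant genes stand at 62.8% there.

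Among the SR and Tra2 genes, 11 of 12 tested genes were called lower, with a median log2 fold change of -0.82. Of all genes tested 38.2% were called lower, and of the genes with a mean count of at least 801, 54.9%. Srsf2, which encodes SC35, a marker protein of nuclear speckles, had normalised counts of 12472 and 12000 without genistein, and of 5405 and 5875 after exposure. It fell by 1.12 ± 0.05 on the log2 scale (SE, n = 2 against 2, edgeR adjusted p = 4.13e-12), to 46.1% of its untreated level. Srsf1, the shuttling prototype of the family also called ASF/SF2, was the SR gene with the most reads. Its counts were 21382 and 20908 untreated and 9750 and 10115 after genistein, and it fell by 1.09 ± 0.05 on the log2 scale (edgeR adjusted p = 5.15e-12). For both genes the groups lay far apart beside the gap between replicates.

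Srsf9, an SR protein with a short arginine-serine domain, had 2764 and 2736 counts untreated and 1453 and 1432 with genistein (log2 fold change -0.93 ± 0.04). Srsf3, the smallest SR protein and a link to RNA export, went from 10775 and 10338 to 5763 and 5940 counts (log2 fold change -0.85 ± 0.04). Srsf7, which like Srsf3 serves as an adaptor for the export receptor, went from 6442 and 6197 to 3489 and 3605 (log2 fold change -0.83 ± 0.03). Srsf10, a splicing repressor when dephosphorylated, had 5773 and 5845 counts untreated and 3178 and 3388 after exposure (log2 fold change -0.82 ± 0.04). These 4 genes ended between 52.5% and 56.5% of their untreated level.

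Srsf6 and Srsf4, a pair of SR proteins with long arginine-serine domains, changed by -0.75 and -0.62 on the log2 scale, and Srsf11 by -0.22. The Tra2 pair had unlike values. Tra2b, a sequence-specific activator of exons with GAA-rich enhancers, had 5125 and 5117 counts untreated and 2890 and 2919 with genistein (log2 fold change -0.82). Its paralogue Tra2a started from nearly the same counts, 5134 and 5118, and had 4505 and 4528 after exposure (log2 fold change -0.18, edgeR adjusted p = 6.46e-05). The difference between the paralogues was not tested.

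Srsf5, an SR protein known as an early response gene, had 5104 and 4967 counts untreated and 4568 and 5039 with genistein, so that the groups overlapped. Its log2 fold change was -0.07 ± 0.04 (edgeR adjusted p = 0.14). Without the second genistein library it was -0.14 and passed the test (adjusted p = 0.0039), and without the first it was 0.0045. Srsf5 is named here after its values were seen, as are Tra2a, Tra2b and Hnrnpul2.

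The make-up of the SR pool in reads can be set side by side for the 4 libraries, as a description. Of the reads assigned to SR and Tra2 genes, Srsf1 took 23.6% and 23.7% without genistein and 19.0% in both exposed libraries, and Srsf2 took 13.8% and 13.6% against 10.6% and 11.0%. Srsf5 went from 5.64% and 5.62% to 8.92% and 9.46%. Tra2a went from 5.67% and 5.79% to 8.80% and 8.50%, and Srsf11 from 4.89% and 4.93% to 7.21% and 7.20%. The shares of Srsf6 stayed between 10.8% and 11.3%. These are shares of reads, not of molecules, because longer transcripts give more reads.

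**Figure D3:**
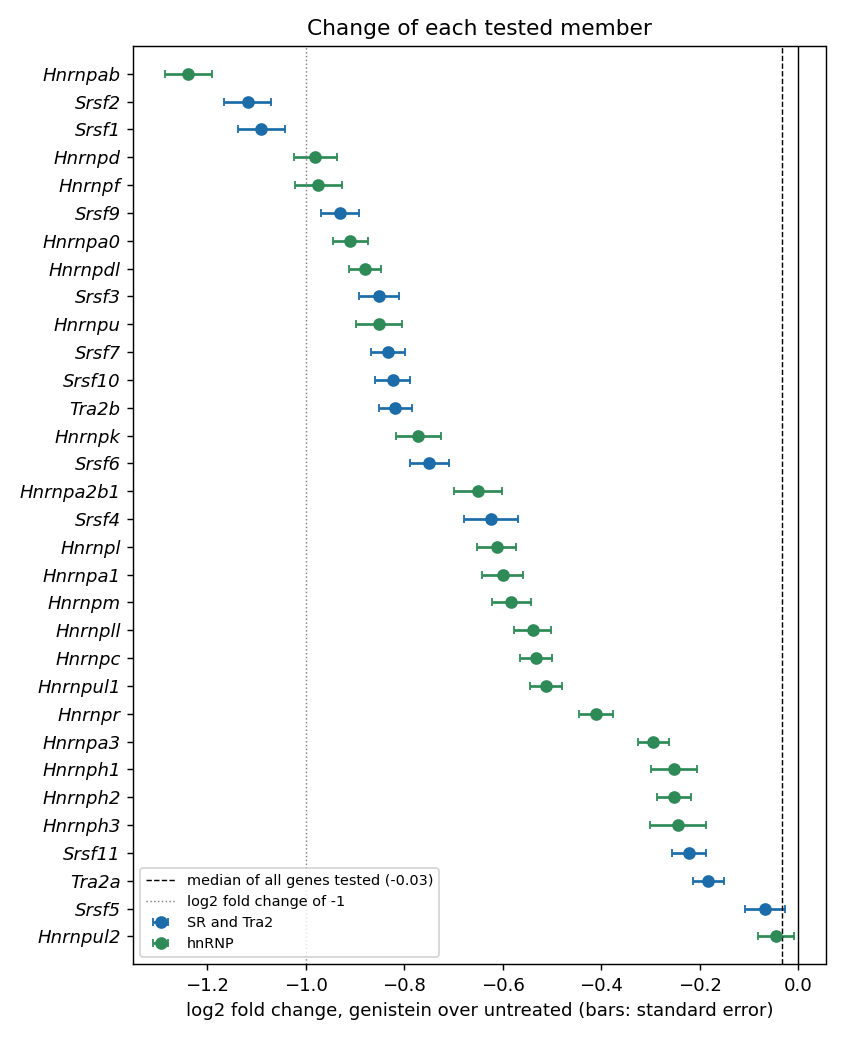
Log2 fold change of genistein over untreated with its standard error (bars) for each of the 32 tested members, SR and Tra2 genes in blue and hnRNP genes in green; the solid line is 0, the dashed line the median of all genes tested (-0.03) and the dotted line -1. Hnrnpab, Srsf2 and Srsf1 lie left of -1, and Srsf5 and Hnrnpul2 lie nearest to the median of all genes.

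Among the hnRNP genes, 19 of 20 were called lower, with a median log2 fold change of -0.59. The shares called lower were 38.2% of all genes tested and 54.9% of those with a mean count of at least 801. Hnrnpab, an A/B-type protein with paired RNA recognition motifs, showed the largest fall of any member. It had 21697 and 21273 counts untreated and 8913 and 9297 after exposure, and it fell by 1.24 ± 0.05 on the log2 scale (SE, n = 2 against 2, edgeR adjusted p = 1.25e-12), to 42.4% of the untreated level. The related D-type genes were also lower. Hnrnpd, which encodes AUF1, a factor for AU-rich mRNAs, went from 3789 and 3539 counts to 1920 and 1793 (log2 fold change -0.98 ± 0.04). Hnrnpdl, its near relative, went from 7821 and 7472 to 4113 and 4200 (log2 fold change -0.88 ± 0.03). These 3 genes ended at 54.3% or less of their untreated level.

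Hnrnpa0, a single-exon relative of the A/B genes, had 5696 and 5584 counts untreated and 2914 and 3092 with genistein (log2 fold change -0.91 ± 0.04). Hnrnpa2b1 had the most reads of the hnRNP genes, 24558 and 23040 untreated and 14970 and 15367 with genistein, and changed by -0.65 ± 0.05. Hnrnpa1, the best studied silencer-binding protein of the family, changed by -0.60 and Hnrnpa3 by -0.29. The 4 A-type genes thus covered a range from -0.91 to -0.29 on the log2 scale.

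Hnrnpf, which binds G tracts, had 14998 and 14643 counts untreated and 7283 and 7804 after exposure (log2 fold change -0.97 ± 0.05). The genes of its H-type relatives had values nearer to 0. Hnrnph1 had 16054 and 15382 counts untreated and 13069 and 13316 with genistein (log2 fold change -0.25 ± 0.05, edgeR adjusted p = 1.45e-04), and Hnrnph2 and Hnrnph3 had log2 fold changes of -0.25 and -0.24. The F gene and the H genes bind like sequences, and the difference in their change was not tested. Hnrnph1, Hnrnph2 and Hnrnph3 are named after their values were seen.

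Hnrnpu, which encodes SAF-A, a nuclear scaffold protein that binds chromatin and RNA, had 22701 and 22255 counts untreated and 12307 and 12620 with genistein (log2 fold change -0.85 ± 0.05). Its paralogue Hnrnpul1 had a log2 fold change of -0.51. Hnrnpul2 had 3555 and 3593 counts untreated and 3565 and 3357 with genistein, overlapping groups, and a log2 fold change of -0.05 ± 0.04 (edgeR adjusted p = 0.28). The remaining hnRNP genes, Hnrnpk, Hnrnpl, Hnrnpm, Hnrnpll, Hnrnpc and Hnrnpr, all passed the test, with log2 fold changes from -0.77 (Hnrnpk, a poly-C binding protein) to -0.41 (Hnrnpr).

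Within the hnRNP pool Hnrnpab went from 11.1% and 11.2% of the reads to 7.47% and 7.62%. Hnrnph1 went from 8.18% and 8.08% to 11.0% and 10.9%, and Hnrnpa2b1 kept 12.1-12.6% in all 4 libraries.

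Expressed per length, as CPM per kb of annotated exon, the untreated means ran from 258 for Hnrnpab to 6.45 for Hnrnpr. The length holds the exon bases of every annotated transcript of a gene, 2782 for Hnrnpab and 22199 for Hnrnpr. The order of genes therefore depends on the annotation as well as on the reads. Hnrnpf followed Hnrnpab with 163, then came Srsf2 with 138, Srsf1 with 124 and Hnrnpa2b1 with 121. After genistein Hnrnpab was still highest with 109 and Hnrnpf next with 82.8, while Hnrnpa2b1 (77.0) and Hnrnph1 (75.5) stood above Srsf2 (63.7) and Srsf1 (58.2). Srsf5 moved from place 19 to place 10 in this order with a level that went from 42.2 to 40.3. The log2 levels of the 2 conditions correlated with Pearson's r = 0.97 and Spearman's rho = 0.96 over 32 genes. Members with a higher untreated level had more negative log2 fold changes (r = -0.55, rho = -0.56), a description that shares the untreated libraries on both axes and has no test.

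**Figure D4:**
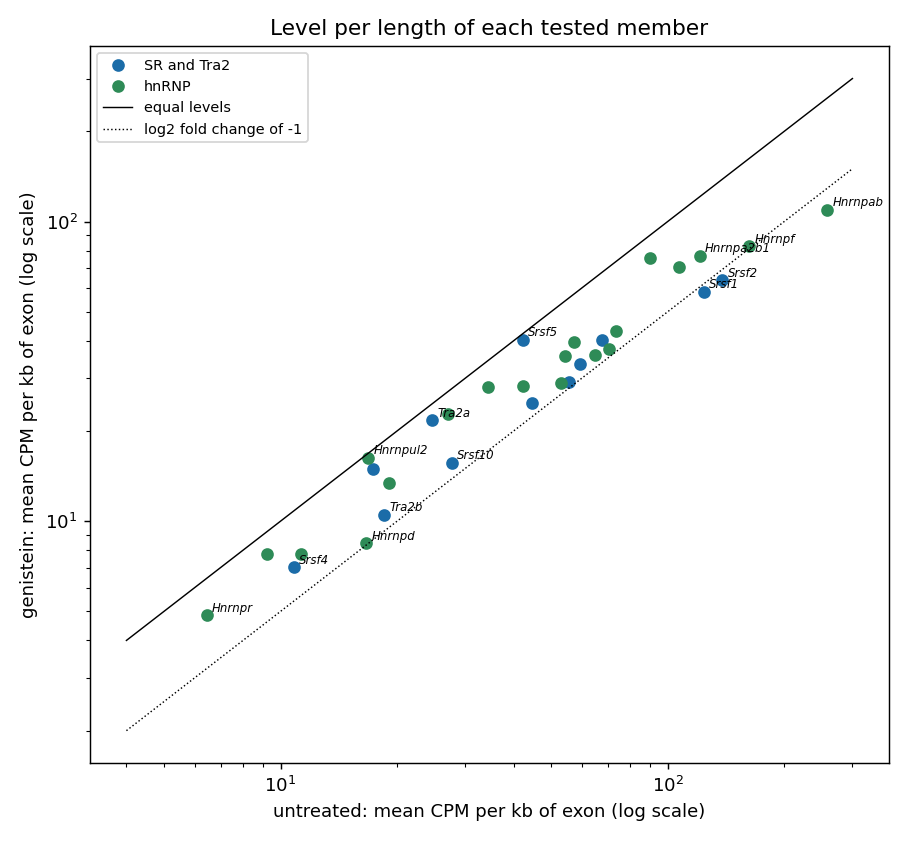
Mean level of each tested member in untreated (x axis) and genistein-exposed (y axis) cells as CPM per kb of exon, both on log scales; the solid line marks equal levels and the dotted line a log2 fold change of -1. The 5 members of highest untreated level and some others are labelled; Hnrnpab, Srsf1 and Srsf2 lie below the dotted line, and Srsf5 and Hnrnpul2 lie close to the solid line.

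Since the counts come from total RNA, what a member's count contains depends on its annotation. In GENCODE, 26 of the 32 tested members have a transcript annotated either as a target of nonsense-mediated decay (21 genes) or with a retained intron (24 genes). This holds for 11 of 12 SR and Tra2 genes and for 15 of 20 hnRNP genes. Of the exon bases of a member, between 0% and 74.0% lie outside its protein-coding transcripts, with a median of 28.5%. The same counts and shares over all genes tested were not made, so these values cannot be read as particular to the members. Tra2a had the highest share, 74.0%, followed by Hnrnpll (73.3%), Srsf3 (66.9%), Hnrnpa2b1 (63.0%), Tra2b (61.7%), Srsf11 (60.6%) and Srsf5 (58.5%). Hnrnpab, Hnrnpf, Hnrnpa0 and Hnrnph2 had 0%, Hnrnpa3 1.45%, Hnrnpr 2.27% and Srsf1 2.66%. Among the genes at 0% the log2 fold change ran from -1.24 (Hnrnpab) to -0.25 (Hnrnph2). The share correlated with the log2 fold change at r = 0.34 and rho = 0.35 over 32 genes. This is a weak relation across genes and no finding. Srsf3 and Tra2b had high shares and log2 fold changes of -0.85 and -0.82. A read on a poison exon or a retained intron that is annotated counts toward its gene, so the values above do not separate productive from unproductive transcripts.

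The deposited table also holds gene rows that lie wholly inside a member, and 5 of them had enough reads to be tested. An unspliced record inside an intron of Srsf4, A930004J17Rik (chr4:131878628-131883237, same strand, sharing 0 exon bases with Srsf4), had 582 and 574 raw counts untreated and 631 and 568 with genistein. Its log2 fold change was -0.03 ± 0.06 (edgeR adjusted p = 0.72). The record Gm43362 inside Srsf11 (chr3:158033940-158036409, same strand) had 221 and 228 against 243 and 225 raw counts (log2 fold change -0.02 ± 0.10, edgeR adjusted p = 0.87). The exonic counts of Srsf4 changed by -0.62 and those of Srsf11 by -0.22 on the same scale, and the difference between each host and its inner record was not tested. Mir7-1, the miRNA gene in an intron of Hnrnpk, had 22 and 37 raw counts untreated and 22 and 27 with genistein (log2 fold change -0.35 ± 0.31, edgeR adjusted p = 0.32). 4933440N22Rik and Gm17092, which lie on the opposite strand of Hnrnpf and Hnrnpd, had log2 fold changes of 0.04 ± 0.23 and -0.03 ± 0.34 with adjusted p-values of 0.88 and 0.95.

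Of the 32 tested members, 14 share exon bases with another gene, and the strand setting of the counting is not given in the sources used here. On the opposite strand, the exons of Hnrnpab overlap those of Phykpl by 809 bases, and those of Srsf2 overlap Mettl23 by 460 and Mfsd11 by 288. Also opposite, those of Srsf4 overlap Gm12992 by 1532 bases and those of Hnrnpu overlap Cox20 by 804. Those of Hnrnpf overlap 4933440N22Rik by 410 and Gm43863 by 396, again opposite. On the same strand, Hnrnpm shares 1169 exon bases with March2, Hnrnpul2 shares 360 with AC129217.1 and Hnrnpa3 shares 57 with Gm24574. Reads in those bases cannot be assigned with certainty.

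Both families have many processed pseudogenes, copies of their mRNAs elsewhere in the genome. By sequence, 105 annotated pseudogenes matched 17 of the members at 85% identity or more over at least 50% of their length, and 80 of these had a row in the table. Set against the members' summed counts, their reads came to 10.7% in both untreated libraries, and after exposure to 10.2% and 10.4%. Hnrnpa1 was the extreme case, as its copies held 132% of its own count in the first untreated library, mostly Gm10052, which is 100% identical over the matched stretch. Gm10052 had 13321 and 12962 normalised counts untreated and 8012 and 8406 after exposure (log2 fold change -0.68 ± 0.05). For Hnrnpk the copies held 60.1% of its count in the same library, chiefly Gm7964 (log2 fold change -0.83 ± 0.04).

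Of 30 pseudogene rows tested, 23 were called lower and 1 higher, with a median log2 fold change of -0.72. Among all genes tested 38.2% were called lower and 33.5% higher. Reads of a copy and of its parent gene cannot be told apart where their sequences are equal, so the values of members with well-matched copies are uncertain. Beside Hnrnpa1 and Hnrnpk this applies to Srsf3, Tra2b and Srsf5, whose copies held 22.5%, 23.1% and 21.9% of the member's count in the first untreated library. The chief copy of Srsf3, Gm9761, was 99.6% identical over the matched stretch and had a log2 fold change of -1.28 ± 0.05. When the counts of the matched copies were added to their member, the same 30 members were called lower. Srsf3 then had a log2 fold change of -0.92 in place of -0.85, Hnrnpa1 -0.65, Hnrnpk -0.79, Tra2b -0.87 and Srsf5 -0.09 (edgeR adjusted p = 0.058). The Srsf5 copy Gm12966 had 1119 and 1108 counts untreated and 953 and 1038 with genistein (log2 fold change -0.16 ± 0.06, edgeR adjusted p = 0.015).

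hnRNP proteins that go by other names moved in both directions. Of 14 tested, 9 were called lower, 2 higher and 3 did not pass, with a median log2 fold change of -0.29. Syncrip (hnRNP Q) went from 9162 and 9233 counts to 4640 and 4874 (log2 fold change -0.95), Ptbp1 (hnRNP I, the polypyrimidine tract binding protein) from 14373 and 13782 to 7749 and 7449 (-0.89), and Pcbp4 changed by -0.77. Cirbp, a cold-inducible RNA-binding protein, rose by 0.45 on the log2 scale. All counts of list genes in this and the next paragraphs are to be read against the 38.2% called lower and 33.5% called higher among all genes. Most list genes are abundant, and of the 6509 genes with a mean count of at least 801, 54.9% were called lower.

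The enzymes and carriers that act on SR proteins were mixed. Of 12 genes for SR protein kinases and nuclear importins, 8 were called lower and 2 higher, with a median of -0.27. Srpk1, a cytoplasmic kinase that prepares SR proteins for nuclear import, had 4220 and 4064 counts untreated and 2412 and 2478 with genistein (log2 fold change -0.76 ± 0.04). Its relative Srpk2 had 1806 and 1819 untreated and 3975 and 3999 with genistein, and rose by 1.14 ± 0.04 on the log2 scale (edgeR adjusted p = 1.10e-13). Clk1, a nuclear kinase that releases SR proteins from speckles, rose from 2792 and 2830 to 4027 and 3927 (log2 fold change 0.50 ± 0.03). Prpf4b changed by -0.62, and Srpk3, at 17.0 and 20.1 counts untreated and 3.75 and 3.04 with genistein, by -2.40 ± 0.47.

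Of 28 genes listed as cofactors tied to the arginine-serine domain, 21 were called lower and 2 higher, with a median of -0.33. U2af1 and U2af2, the small and the large subunit of the factor that recognises the 3′ splice site, changed by -1.03 and -0.84, and Rnps1, a splicing activator of the exon junction complex, by -0.81. Rsrp1 rose from 3578 and 3485 to 6331 and 6511 counts (log2 fold change 0.86) and Luc7l2, a U1-associated protein, had a log2 fold change of 0.14. Without the first untreated library 1 of these cofactors was called higher. Of 28 other regulators of alternative splicing tested, 20 were called lower and 5 higher, with a median of -0.41. Rbm10 (-0.88), Tardbp, which encodes TDP-43 (-0.86), and Rbm17 (-0.71) had the largest falls. Rbm4 (0.52), Rbfox2 (0.28) and Celf2 (0.15) had the largest rises. The 5 called higher were 3 without the first untreated or the second genistein library and 2 with DESeq2.

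Core components of the spliceosome had a median close to that of the members. Of 55 genes, 54 were called lower and 0 higher, with a median of -0.65. None of the 55 had a log2 fold change above 0 with TMM scaling (with library totals alone 1 did), so that 0 were higher at an unadjusted p under 0.05 and with DESeq2, which called 53 lower. Snrpd1, a core Sm protein, went from 2523 and 2486 to 1071 and 1052 counts (log2 fold change -1.24), Snrpa1, a U2 protein, changed by -1.22, and Lsm7, a U6-binding protein of low count, by -1.28 ± 0.15. Slu7, a factor of the second catalytic step and the 1 gene that did not pass, was named after its values were seen and changed by -0.01 (edgeR adjusted p = 0.79).

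Of 15 genes of nonsense-mediated decay and the exon junction complex, 11 were called lower and 1 higher, with a median of -0.38. Magohb (-1.20), Eif4a3 (-1.10) and Magoh (-0.996), all genes for proteins of the exon junction complex, had the largest falls. Smg6, the endonuclease of the pathway, rose from 1345 and 1357 to 1860 and 1795 counts (log2 fold change 0.44).

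**Figure D5:**
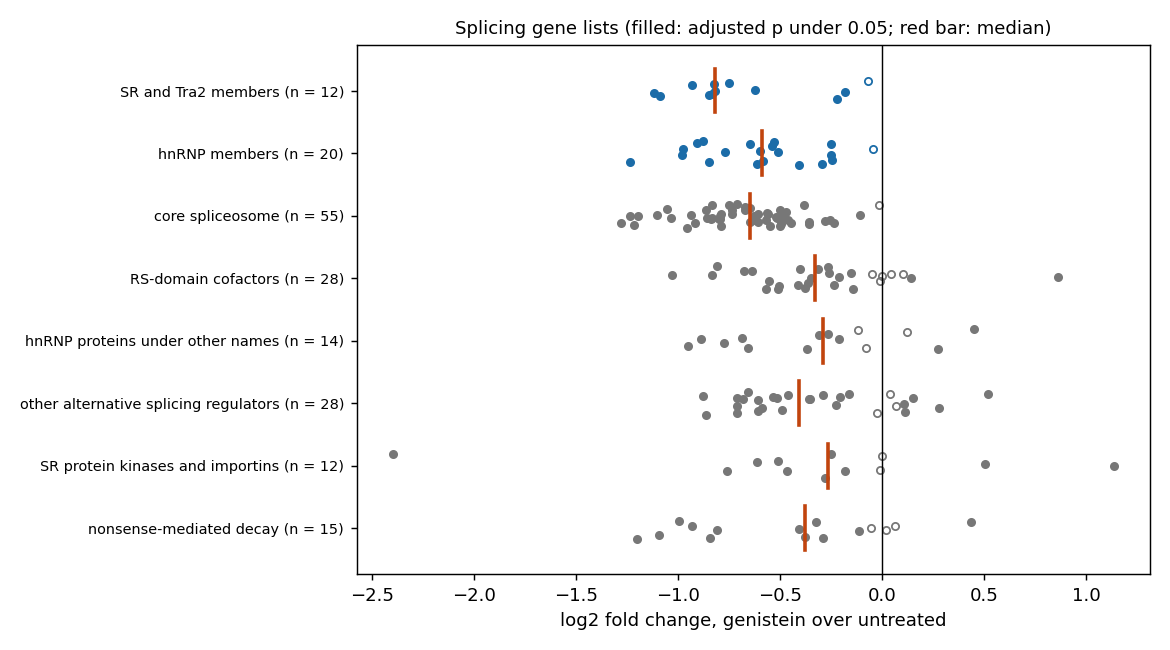
Log2 fold change of each tested gene (points, x axis) in the SR and hnRNP members (blue) and in 6 lists of splicing genes (grey); filled points passed an adjusted p of 0.05, open points did not, and the red bar is the median of the row. With TMM scaling the member rows and the core spliceosome lie wholly below 0 (with library totals alone 2 members and 1 core gene lie above it), with medians of -0.82, -0.59 and -0.65, and the other 5 lists hold genes on both sides.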

How the data were processed

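Total RNA of untreated and genistein-exposed MEF cells (2 libraries each) was depleted of ribosomal RNA, prepared with a stranded kit and sequenced as paired ends. The authors trimmed the reads, aligned them to mm10 with STAR, allowing many alignments per read, and counted genes (Gencode) and repeats with TEtranscripts. The deposited table holds raw read counts per gene and repeat. The strand setting of the counting, and how reads with several equal alignments were shared between a gene and its copy, are not given in the sources used here. A row without a name held 0.00208-0.00314% of the counts and was left out. Library totals were 28591958-31464284.

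From the counts, entries were filtered with filterByExpr by group, scaled by TMM and tested with the quasi-likelihood test of edgeR 4.0.16 (R 4.3.3) over 16240 genes and 1118 repeats together, with Benjamini-Hochberg adjustment. A call is an adjusted p under 0.05. Normalised counts are counts scaled to the mean effective library size, and standard errors were derived from the log2 fold change and its F statistic. The smallest exact permutation p (two-sided) for 2 against 2 libraries is 0.333, so no such test is given. Simulated counts for the 17358 entries of this comparison, with 200 changed 1.5-fold, gave 137 of the 200 (68.5%) and 4 false calls. The 200 were drawn from tested genes of all levels, with as many raised as lowered. Far more genes were called in the data, and the members are abundant, so these figures do not describe the calls of the members. The study used DESeq2, which was run here (1.42.0) as an alternative, as were RLE factors, TMM factors from genes alone, library totals, no filter, a test against a minimum log2 fold change of 0.25, leaving out each library in turn and a fit with a replicate block.

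Counts of the 2 libraries within a group were not equal within sampling noise: chi-square divided by its degrees of freedom was 5.48 (untreated) and 12.1 (genistein). Gene models, positions and overlaps came from a later GENCODE release on the same assembly (GRCm38) as the study used, so exon bases may differ from those counted. Pseudogenes were matched to member transcripts with blastn 2.17.0. Adding their counts to the member was an alternative chosen after seeing the data. Promoter sequences came from RefSeq.

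Members, lists and markers were chosen with earlier results of these data known. Values in every library are given for up to 6 called members per family and direction by size of the log2 fold change, plus the member of highest count, and up to 3 higher and 3 lower genes are named per list. The values of 1 list gene are not reported here.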

Additional observations from a re-analysis of the deposited data

How the results depend on the processing

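The 11 SR and Tra2 and 19 hnRNP members called lower stayed within 1.5 times of those counts under each alternative. Library totals alone turned the log2 fold change of Srsf5 to 0.00168 and that of Hnrnpul2 to 0.0234, neither called. Leaving out 1 library moved Srsf5 between -0.14 and 0.0045. It was called lower without the second genistein library (-0.14, adjusted p = 0.0039) and with no filter on low counts. In a test against a minimum log2 fold change of 0.25, 6 members lost the call (Hnrnpa3, Hnrnph1, Hnrnph2, Hnrnph3, Srsf11 and Tra2a). Deviations of same-numbered libraries correlated at -0.03, so the labels' numbers give no evidence of pairing. With a replicate block, 11 SR and Tra2 and 19 hnRNP members were again called lower, and 3 met the thresholds of the study. Those thresholds were met by 4 members with no filter, and by 3 to 4 when 1 library was left out (4 without the second untreated or either genistein library). Among the lists, genes called higher went from 5 to 3 (no filter), 2 (DESeq2) and 1 (minimum of 0.25) for other regulators and from 1 to 2 for nonsense-mediated decay with library totals. Against the minimum of 0.25, 1 in place of 2 was higher for the hnRNP proteins under other names and for the cofactors, and 5 in place of 8 kinases and importins were lower. The lowest mean count of a tested member was 801, and the effect of depth on the calls was not tested. Srsf12 was not detectable at this depth.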
